A study of Mus musculus with 4 samples.

Results

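The transcripts of 10 genes were followed in mouse embryonic fibroblasts (MEF cells) with and without DNA topoisomerase 2β. They are the 6 DNA topoisomerase genes Top2b, Top2a, Top1, Top1mt, Top3a and Top3b, the tyrosyl-DNA phosphodiesterase genes Tdp1 and Tdp2, and the RMI genes Rmi1 and Rmi2. They were taken by name from the 54842 genes of the count table, and all 10 passed the filter on low counts together with 25085 genes in all. RNA-seq libraries of total RNA without ribosomal RNA were available for wt MEF cells (n = 2) and Top2β-null MEF cells (n = 2), all untreated and grown in DMEM with fetal bovine serum. The Top2β-null MEF cells were a gift of other laboratories, and the methods of the study cite a different source for its MEF cells, so genotype and origin of the cells cannot be told apart here. The labels do not state whether replicates were separate cultures, and the p-values below therefore measure the spread between these libraries, which may be technical.

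DNA topoisomerases release the torsion that builds up when the helix is opened for transcription or replication. They cut the DNA backbone, let strands pass or rotate, and reseal the cut, and during this step a tyrosine of the enzyme is joined to the end of the DNA. Type II enzymes (Top2a and Top2b) cut both strands, type IB enzymes (Top1 and the mitochondrial Top1mt) cut 1 strand, and type IA enzymes (Top3a and Top3b) pass single strands through each other. Topoisomerase poisons trap the enzyme on its cut, and the trapped protein is removed by the phosphodiesterases: Tdp1 cleaves the bond that Top1 leaves on a 3′ end, and Tdp2 the bond that Top2 leaves on a 5′ end. In proliferating fibroblasts Top2a is known for its rise towards mitosis, whereas Top2b is expressed in dividing and resting cells.

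Since paralogs can share reads, the stretches in which the members resemble each other most were read from the GENCODE M21 transcripts. Top2a and Top2b share no run of identical bases longer than 23, and both runs of that length lie in coding sequence. They are shown here in windows of 30 bases on GRCm38, 5′ to 3′ on the strand of the gene, with capitals at the bases that differ between the paralogs. The first window lies in 1 exon of each gene, at chr11:99006056-99006085 (reverse strand) in Top2a and chr14:16409235-16409264 (forward strand) in Top2b.
Top2a: TtAcagcccattggtcagtttggaacCAgg
Top2b: CtTcagcccattggtcagtttggaacTCgg
The second window spans 2 exons of each gene, at chr11:99010594-99010929 in Top2a and chr14:16398741-16398914 in Top2b, and the bases of the intron are left out.
Top2a: gtGcgagaagcctctcataaacagatCatg
Top2b: gtAcgagaagcctctcataaacagatTatg
For Top1 and Top1mt the longest shared run was 19 bases, at chr2:160714089-160714118 (forward strand) and chr15:75667568-75667597 (reverse strand).
Top1: gAgAGcaggcaatgagaaggaagaAggAga
Top1mt: gCgGAcaggcaatgagaaggaagaGggCga
The longest shared run was 12 bases for Top3a and Top3b, 13 bases for Tdp1 and Tdp2 and 22 bases for Rmi1 and Rmi2. No window of 100 bases occurred in more than 1 member of any of these pairs.

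Each library held between 133116830 and 149647278 counts over genes and repeats. The lowest count of any member was 1240 (Rmi2), at which counting error alone gives a coefficient of variation of 2.84%. Of the 10 defining fibroblast markers, all were detected, with 5 higher and 4 lower in Top2β-null MEF cells. Their summed normalized counts were 1342400 and 1366300 in wt and 933770 and 940440 in Top2β-null MEF cells, a sum dominated by Fn1, Vim and Col1a1, which were lower, whereas Thy1 (4.21-fold), Pdgfrb (3.68-fold), Pdgfra (2.24-fold) and Twist1 (1.84-fold) were higher. Markers of other cell types were low but differed between the genotypes. Summed normalized counts in wt and then in Top2β-null MEF cells were 67.6 and 70.5 against 19.7 and 19.8 for epithelial markers, 165 and 162 against 252 and 258 for endothelial markers, 9.08 and 11.6 against 32.1 and 35.7 for leukocyte markers, and 88.8 and 139 against 3.11 and 0.99 for muscle markers. Single genes carried most of these differences, namely Krt8, Kdr (while Tek was lower), Itgam and Des, respectively. Myog, Actc1 and Tyrobp had no count in any library. Among 5 neural markers 1 was higher (Tubb3, with means of 2014 and 4460), Sox10 and Gfap were lower, Elavl3 did not pass and Rbfox3 was not tested, and their sums of 2113 and 2102 in wt and 4390 and 4652 in Top2β-null MEF cells were nearly all Tubb3. The part of these differences in the results below was not tested.

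Of the 10 members, 3 were higher in Top2β-null MEF cells (Top3a, Top1 and Top2a), 4 were lower (Top2b, Top1mt, Tdp1 and Tdp2) and 3 did not pass the test (Top3b, Rmi1 and Rmi2). Passing means an adjusted p below 0.05 (quasi-likelihood test of edgeR, adjusted by Benjamini-Hochberg over 26566 genes and repeat families). The 2 groups of libraries did not overlap for the same 7 members, against 42.9% (higher) and 45.7% (lower) of the genes with a mean over 100. Among all genes tested, 32.8% were higher and 33.7% lower by the same test, and among the 16656 genes with a mean normalized count over 100, 37.3% were higher and 40.3% lower. The share of members that passed (7 of 10) was thus close to that of other genes. By the stricter cut-offs of the study's methods, with an absolute log2 fold change over 1 and a mean over 100, 1 member, Top2b, was called lower, against 7.91% of the genes with such a mean. No member was called higher, with edgeR or with DESeq2, whereas 3 were higher at an unadjusted p below 0.05 in edgeR and the background was 8.32%. The median log2 fold change of the members was -0.021, and their median absolute log2 fold change was 0.17, compared with 0.35 over the 16656 genes.

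**Figure D1:**
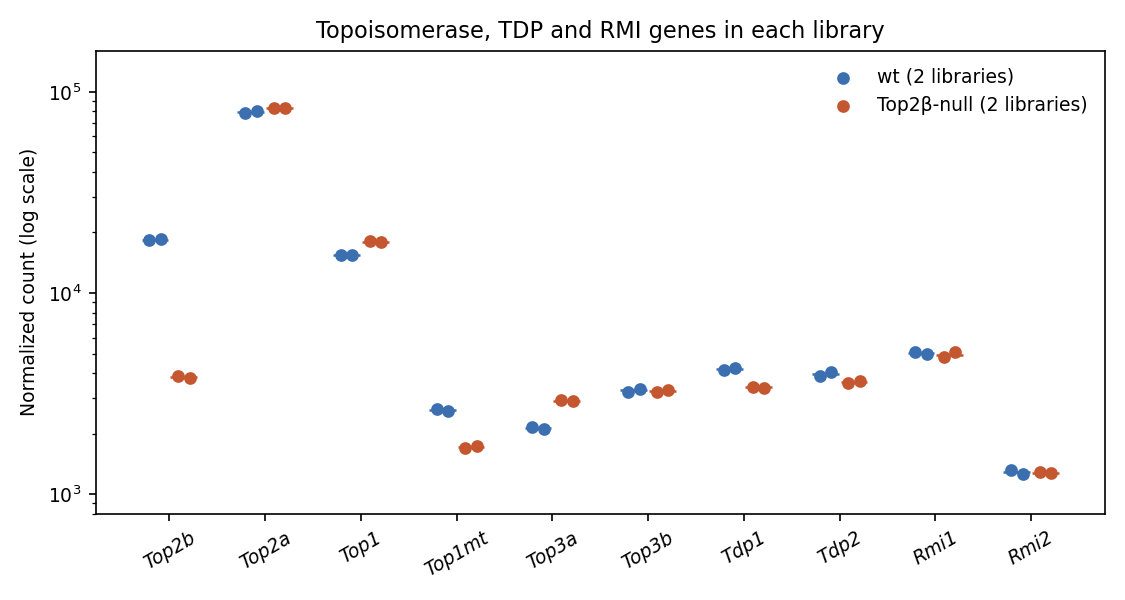
Normalized counts (log axis) of the 10 members in each library, with wt in blue and Top2β-null in orange. Points are single libraries and lines are group means. Top2b falls from 18362 to 3834, whereas the points of Top3b, Rmi1 and Rmi2 overlap between the genotypes.

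Top2b (chr14:16365179-16435462, forward strand), which encodes the enzyme missing in the mutant, had normalized counts of 18259 and 18465 in wt, compared with 3879 and 3789 in Top2β-null MEF cells. Both Top2β-null libraries lay far below both wt libraries. The mean decreased from 18362 ± 145 to 3834 ± 63.1 (SD, n = 2), which left 20.9% of the wt level. The log2 fold change was -2.26 (standard error 0.0271, 95% interval -2.32 to -2.20, adjusted p = 6.56e-19 in edgeR). This was larger in size than the log2 fold change of 90.4% of all genes tested. The counts are summed over the gene and do not show which exons the remaining transcripts contain.

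The 3′ part of Top2b overlaps the retinoic acid receptor gene Rarb, which is read from the opposite strand. The overlap covers 1793 bases of exon, or 12.3% of the exon bases of Top2b. The libraries keep the strand of the RNA, but the strand setting of the counting is not given in the sources used here. Rarb had 82.8 and 98.5 normalized counts in wt and 91.1 and 76.3 in Top2β-null MEF cells, which overlapped between the genotypes (log2 fold change -0.12, SE 0.194, adjusted p = 0.616 in edgeR, and 0.25 with scaling to Hprt).

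Top2a (chr11:98992943-99024189, reverse strand), the type II enzyme of dividing cells, was the most abundant member. It had 78726 and 80246 normalized counts in wt and 83408 and 83495 in Top2β-null MEF cells, and the groups did not overlap. The mean was 1.05-fold higher (log2 fold change 0.070, SE 0.0267, 95% interval 0.013 to 0.13, adjusted p = 0.0307 in edgeR). Without wt replicate 1, the log2 fold change was 0.057 with an adjusted p of 0.173, where the single wt library left is assumed to vary like the Top2β-null libraries. Per kilobase of exon, the summed level of Top2a and Top2b decreased from 10076 ± 129 to 9521 ± 2.47 (SD, n = 2), or 0.945 of wt. Top2b made up 12.5% of this sum in wt but 2.76% of it in the mutant, and with the length of the longest transcript in place of the exon union it made up 10.5% and 2.27%. The decrease of the sum and its direction depend on the scaling. Log2 fold changes rose by a median of 0.070 with scaling to the total count and by 0.37 with scaling to Hprt.

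Top1 (chr2:160645888-160722764, forward strand), the nuclear type IB enzyme, had 15429 and 15399 normalized counts in wt and 18060 and 17829 in Top2β-null MEF cells. Both Top2β-null libraries were above both wt libraries, and the mean was 1.16-fold higher (log2 fold change 0.22, SE 0.0242, 95% interval 0.17 to 0.27, adjusted p = 6.95e-07 in edgeR). Top1mt (chr15:75657035-75678800, reverse strand), its mitochondrial paralog, had 2662 and 2583 normalized counts in wt and 1694 and 1727 in Top2β-null MEF cells. This gene thus moved in the other direction, to 65.2% of wt (log2 fold change -0.62, SE 0.0442, 95% interval -0.71 to -0.52, adjusted p = 3.55e-09 in edgeR). After Top2b it was the member with the largest log2 fold change in size, above that of 63.5% of all genes tested. An antisense gene, Gm15945, overlaps 4.65% of the exon bases of Top1mt, and it was lower as well (log2 fold change -0.53, SE 0.104, adjusted p = 3.00e-04 in edgeR), with 330 and 324 against 240 and 212 normalized counts. Without the strand setting, reads of this pair in the overlap cannot be told apart.

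Top3a (chr11:60740058-60777365, reverse strand), which works in the nucleus with the BLM helicase and in mitochondria, had 2153 and 2106 normalized counts in wt and 2944 and 2893 in Top2β-null MEF cells. Its mean was 1.37-fold higher, which was the largest increase among the members (log2 fold change 0.46, SE 0.0411, 95% interval 0.37 to 0.54, adjusted p = 6.37e-08 in edgeR). Top3b (chr16:16870736-16892990, forward strand), which acts on RNA as well as DNA, had 3239 and 3338 normalized counts in wt and 3216 and 3292 in Top2β-null MEF cells. These values overlapped between the genotypes (log2 fold change -0.015, SE 0.0379, 95% interval -0.096 to 0.066, adjusted p = 0.745 in edgeR, and 0.35 with scaling to Hprt).

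Rmi1 and Rmi2 encode the proteins that hold Top3a and BLM in 1 complex, which separates joined DNA molecules. Rmi1 (chr13:58402248-58411148, forward strand) had 5080 and 4989 normalized counts in wt and 4795 and 5080 in Top2β-null MEF cells. Rmi2 (chr16:10835059-10892966, forward strand) had 1312 and 1257 in wt and 1284 and 1276 in Top2β-null MEF cells. For both genes the libraries overlapped between the genotypes. The log2 fold change of Rmi1 was -0.028 (SE 0.0333, 95% interval -0.099 to 0.043, adjusted p = 0.488 in edgeR, and 0.34 with scaling to Hprt), and that of Rmi2 was -0.0047 (SE 0.0520, 95% interval -0.12 to 0.11, adjusted p = 0.945 in edgeR, and 0.36 with scaling to Hprt). With 2 libraries per group, the counts remain compatible with differences inside these intervals. Rmi1 shares 22.4% of its windows of 100 bases with other genes, namely Hnrnpk on the opposite strand and the pseudogene Gm20775, so its counts are less certain than those of the other members. Gm20775 had 68.6 and 117 normalized counts in wt and 61.1 and 93.1 in Top2β-null MEF cells, and Hnrnpk was 0.11 lower on the log2 scale (84869 against 78531 normalized counts, SE 0.0266, adjusted p = 0.00158 in edgeR). Over the gene body of Rmi2, the pseudogene CT010583.1 runs on the other strand and shares 121 exon bases, with 88.8 and 73.4 normalized counts in wt and 199 and 152 in Top2β-null MEF cells.

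Both phosphodiesterase genes were lower. Tdp1 (chr12:99884517-99955219, forward strand), which acts on trapped Top1, had 4132 and 4225 normalized counts in wt and 3425 and 3362 in Top2β-null MEF cells. The groups did not overlap, and the mean was 81.2% of wt (log2 fold change -0.30, SE 0.0348, 95% interval -0.37 to -0.23, adjusted p = 1.23e-06 in edgeR, but 0.068 with an adjusted p of 0.119 when scaled to Hprt). Tdp2 (chr13:24831679-24842153, forward strand), which acts on trapped Top2, had 3857 and 4027 normalized counts in wt and 3565 and 3644 in Top2β-null MEF cells. The mean was 91.4% of wt (log2 fold change -0.13, SE 0.0363, 95% interval -0.21 to -0.052, adjusted p = 0.00535 in edgeR, but 0.24 when scaled to Hprt). The call for Tdp2 did not hold in 3 other settings: it was lost without wt replicate 2 (log2 fold change -0.097, adjusted p = 0.0517), without Top2β-null replicate 1 (-0.092, adjusted p = 0.0909) and with scaling to the total count (-0.059, adjusted p = 0.171), all in edgeR. With 1 library left out, the p rests on the spread of the other genotype.

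**Figure D2:**
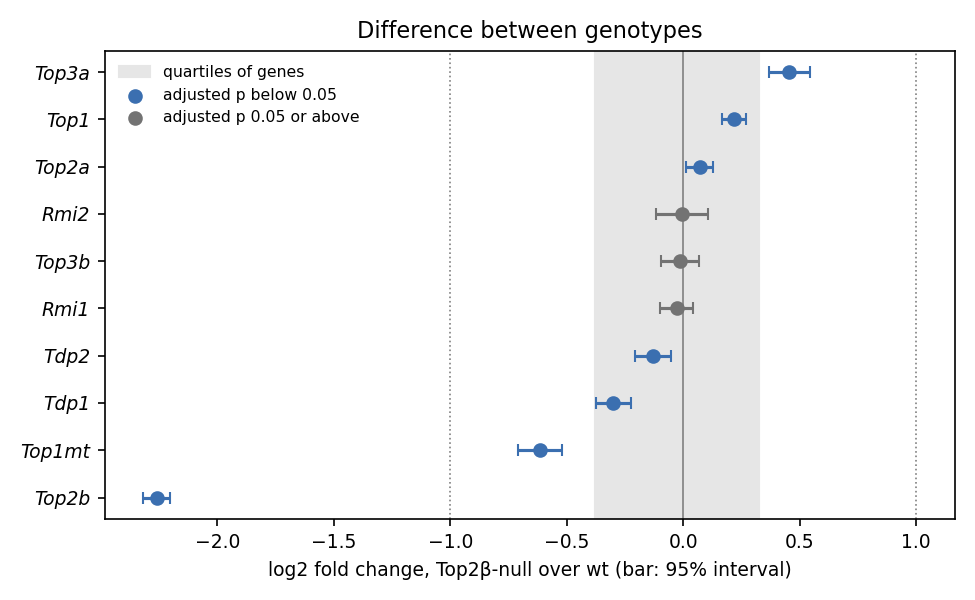
Log2 fold change of each member (Top2β-null over wt) with its 95% interval from edgeR. Blue points had an adjusted p below 0.05, the grey band spans the lower to the upper quartile of the genes with a mean normalized count over 100, and dotted lines mark an absolute log2 fold change of 1. Besides Top2b at -2.26, Top1mt and Top3a lie outside the grey band.

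The scaling matters for small differences of this kind. Hprt, a reference gene for RT-qPCR, was itself lower in Top2β-null MEF cells (10578 and 10424 against 8131 and 8130 normalized counts, log2 fold change -0.37, SE 0.0252, adjusted p = 1.84e-09 in edgeR). Scaling to Hprt raised the median log2 fold change of all genes by 0.37, and 7 members were then higher and 2 lower. Top2b (-1.89) and Top1mt (-0.25) remained lower under this scaling. Relative to the shifted median, the order of the members is as before, and all directions below are given with the main scaling.

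Levels between genes were compared as normalized counts per kilobase of exon. In wt MEF cells, Top2a (8819 ± 119) stood far above Top1 (1478 ± 2.04), Top1mt (1283.5 ± 27.3), Top2b (1257 ± 9.95) and Tdp2 (1199.5 ± 36.6; SD, n = 2 throughout). Rmi1 (766.5), Tdp1 (523), Top3a (463), Top3b (391) and Rmi2 (286) followed. In this order the gap between Top1mt and Top2b, which was 26.9, did not exceed the larger SD of the pair, while each of the 8 other neighbouring pairs lay farther apart than that. In Top2β-null MEF cells, Top2b (262 ± 4.32) was the lowest of the 10, just under Rmi2 (285 ± 1.35), and Top1mt (837 ± 11.4) fell behind Tdp2 (1097 ± 17.0). Top3a (635 ± 7.90) in turn stood above Tdp1 (425 ± 5.62). The order depends on the length used: with that of the longest transcript, Tdp2 had rank 3 and Top1mt rank 5 in wt, while in Top2β-null MEF cells Tdp1 (860) stood above Top3a (780) and Rmi2 rather than Top2b was last.

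Over the 6 topoisomerases, the summed level per kilobase changed from 13692 ± 101 to 13102 ± 3.30 (SD, n = 2), or 0.957 of wt. The direction of this change also depends on the scaling, whereas shares of the sum do not. Top2a held 64.4% of the sum in wt but 70.7% without Top2β, and Top1 held 10.8% and 13.1%. Top2b held 9.18% and 2.00%, and Top1mt held 9.38% and 6.39%. The shares of Top3a (3.38% and 4.84%) and Top3b (2.86% and 2.96%) were the smallest in wt. With the length of the longest transcript, Top1 held 16.7% and 19.7%, Top1mt 5.77% and 3.81%, and Top2b 7.44% and 1.57%, so that Top2b was above Top1mt in wt and Top3a (2.38%) rather than Top3b (3.92%) was the smallest. These are shares of transcripts and not of protein or enzyme activity.

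Each repair or partner gene was then set against the topoisomerase it works with, as a log2 ratio within a library, which does not depend on the scaling between libraries. With 2 against 2 libraries, an exact permutation test (two-sided) cannot give a p below 0.333. This p was reached by the 8 ratios whose groups did not overlap. After adjustment over the 9 ratios compared, it was 0.375. The ratio of Top2a to Top2b was 2.81 and 2.82 in wt and 5.12 and 5.16 in Top2β-null MEF cells, a 5.03-fold increase. The ratio of Tdp2 to Top2b increased from a mean of -0.067 to 2.06, or 4.38-fold. Both increases mainly restate the decrease of Top2b, the gene missing in the mutant. The log2 fold changes of Top2a (0.070) and Tdp2 (-0.13) were small beside that of Top2b (-2.26). Against the sum of Top2a and Top2b, however, Tdp2 differed by no more than -0.047 (pooled SD 0.0238), and by 0.036 when counts were not divided by length, so that its direction is not settled.

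On the Top1 side, the phosphodiesterase and its target moved apart. The ratio of Tdp1 to Top1 was -1.52 and -1.48 in wt and -2.01 and -2.02 in Top2β-null MEF cells, a 1.43-fold decrease. The ratio of Top1mt to Top1 was -0.18 and -0.22 in wt and -1.06 and -1.02 in Top2β-null MEF cells, or 1.78-fold lower. In the Top3 group, the ratio of Top3a to Top3b increased from 0.24 to 0.71 (1.39-fold), while those of Rmi1 to Top3a (0.73 to 0.24) and Rmi2 to Top3a (-0.70 to -1.16) decreased by 1.4-fold and 1.38-fold. Each of these differences was several times its pooled SD, which lay between 0.0171 and 0.0544. The ratios with Top3a are not separate results. They share that gene, and Top3b, Rmi1 and Rmi2 did not pass the test, so they mainly restate the increase of Top3a. The ratio of Rmi2 to Rmi1 averaged -1.42 in wt against -1.40 in Top2β-null MEF cells, and its libraries overlapped.

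**Figure D3:**
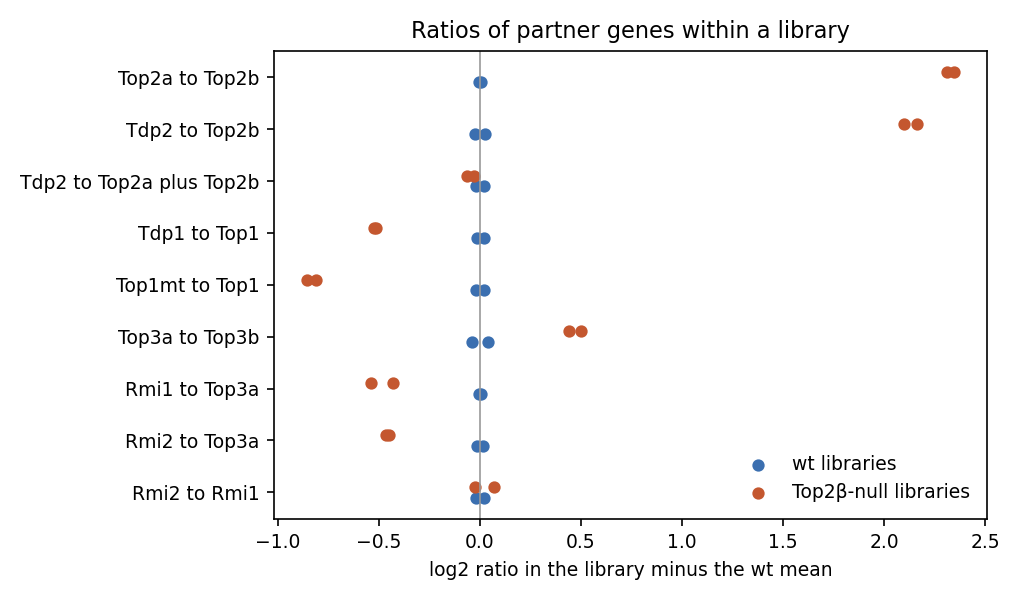
Log2 ratio of partner genes in each library (levels per kilobase), less the mean of the wt libraries, with wt in blue and Top2β-null in orange. Ratios to Top2b lie 2.13 and 2.33 above wt, that of Top1mt to Top1 lies 0.84 below, and that of Rmi2 to Rmi1 overlaps.

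The genes next to Top2b were examined as the nearest genes on the chromosome. Within 500 kb, 15 other genes are annotated and 9 were tested, of which 6 were higher and 3 did not pass, against 32.8% of all genes that were higher. Oxsm, the mitochondrial 3-oxoacyl-ACP synthase, lies 115.4 kb before Top2b and had 202.9 and 201.9 normalized counts in wt and 883 and 862 in Top2β-null MEF cells. This 4.31-fold increase (log2 fold change 2.11, SE 0.0774, adjusted p = 6.42e-13 in edgeR) came close in size to the decrease of Top2b. Ngly1, the cytosolic peptide N-glycanase, lies 53.3 kb before Top2b and had 1122 and 1135 against 1852 and 1898 normalized counts (log2 fold change 0.73, SE 0.0492, adjusted p = 1.53e-09 in edgeR). Oxsm and Ngly1 overlap at their 5′ ends on opposite strands, and the other 4 that were higher (Gm47794, Gm47797, Gm47798 and 5430414B19Rik, between 56.9 and 120.1 kb from Top2b) are non-coding genes inside one or the other, so the reads of these 6 genes cannot be fully told apart. For Rarb and the antisense gene Gm48163, which overlap Top2b, adjusted p was 0.616 and 0.31 in edgeR.

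**Figure D4:**
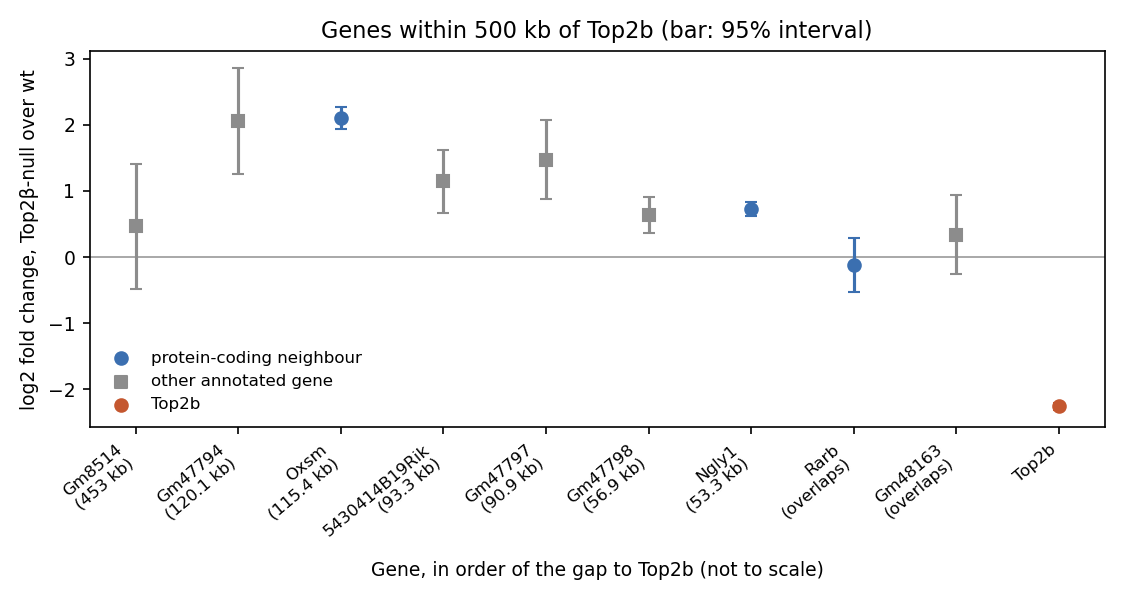
Log2 fold change (Top2β-null over wt, with its 95% interval) of the 9 tested genes within 500 kb of Top2b and of Top2b itself, in order of their gap to Top2b and not to scale. Oxsm lies at 2.11 and Ngly1 at 0.73, while Top2b lies at -2.26.

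By the distance between log2 normalized counts, each less its own mean over the 4 libraries, the protein-coding genes most like Top2b among 12148 candidates included Ptprf, a receptor tyrosine phosphatase (distance 0.0264), and C1qtnf12, a secreted protein (0.0401). Ptprf had 14131 and 14271 normalized counts in wt and 3068 and 2952 in Top2β-null MEF cells. Over 4 libraries in 2 groups, this likeness reflects a similar fold change and not a pattern across conditions.

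The genes that act with the topoisomerases were described by lists, each compared with the 32.8% of genes higher and 33.7% lower in the background, and the split obtained with scaling to Hprt is given beside each count. Among the 12 genes for the repair of Top1 breaks, 4 were higher, 3 lower and 5 did not pass (10 higher and 0 lower with Hprt), with a median log2 fold change of 0.029. Ercc1, the partner of the nuclease XPF, was 1.75-fold higher (2631 and 2489 against 4514 and 4447 normalized counts, log2 fold change 0.81, SE 0.0385, adjusted p = 1.86e-11 in edgeR), and the repair polymerase gene Polb was 1.33-fold higher (log2 fold change 0.42, adjusted p = 1.68e-07 in edgeR). The nuclease genes Mus81 (-0.46) and Eme1 (-0.28) were lower, but with scaling to Hprt Mus81 did not pass and Eme1 turned to 0.086. Among the 11 genes for the repair of Top2 breaks, 4 were higher, 4 lower and 3 did not pass (6 higher and 1 lower with Hprt), with a median of -0.084. The subunits of the end-binding Ku complex moved in opposite directions: Xrcc6 (Ku70) fell to 52.7% of wt (10757 and 10993 against 5699 and 5768 normalized counts, log2 fold change -0.92, SE 0.0263, adjusted p = 2.52e-14 in edgeR), while Xrcc5 (Ku80) was 1.27-fold higher (3535 and 3682 against 4585 and 4556, log2 fold change 0.34, SE 0.0343, adjusted p = 2.35e-07 in edgeR). The kinase gene Atm was higher (0.21) and the ligase gene Lig4 lower (-0.37), although Lig4 did not pass with scaling to Hprt.

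Of the 11 tested genes for the removal of trapped protein, 4 were higher, 4 lower and 3 did not pass (8 higher and 1 lower with Hprt, 7 and 4 with the total count), with a median of 0.045. The unfoldase gene Vcp (-0.40) was lower, but did not pass with scaling to Hprt, whereas the SUMO-targeted ubiquitin ligase gene Rnf4 (0.25) and the protease gene Sprtn (0.22) were higher. Among the 11 partners of Top3a and Top3b and RecQ helicase genes, 4 were higher, 4 lower and 3 did not pass (7 higher and 3 lower with Hprt), with a median of -0.031. Tdrd3, which encodes the partner protein of Top3b, was called by the stricter cut-offs, but its log2 fold change fell short of them with scaling to the total count (-0.95) or to Hprt (-0.65) and without Top2β-null replicate 2 (-0.97). It had 4284 and 4416 normalized counts in wt and 2213 and 2069 in Top2β-null MEF cells (log2 fold change -1.02, SE 0.0419, adjusted p = 2.61e-12 in edgeR), while Top3b itself did not pass the test. Of the 3 subunits of the single-strand binding protein RPA, 2 were lower and 1 higher, although Rpa2 turned to 0.020 with scaling to Hprt. Rpa1, its large subunit, had 33573 and 33848 against 17421 and 17427 normalized counts (log2 fold change -0.95, SE 0.0245, adjusted p = 6.94e-15 in edgeR), Rpa2 had 4735 and 4506 against 3610 and 3643 (-0.35, SE 0.0351, adjusted p = 2.35e-07), and Rpa3, its small subunit, had 1444 and 1420 against 2507 and 2611 (0.84, SE 0.0462, adjusted p = 1.22e-10). Of the RecQ helicase genes, Wrn was 0.24 higher on the log2 scale, whereas Recql4 was at 51.8% of wt (log2 fold change -0.95, adjusted p = 7.35e-13 in edgeR).

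Since Top1mt and Top3a act on mitochondrial DNA, 11 genes for its maintenance were counted, of which 2 were higher, 5 lower and 4 did not pass (median log2 fold change -0.042). The split was 7 higher and 2 lower with Hprt, and 3 and 4 with the total count, with TMM factors from genes only or without a filter on low counts. The mitochondrial transcription factor genes Tfb2m (-0.59, adjusted p = 3.78e-09) and Tfam (-0.49, adjusted p = 4.31e-10 in edgeR) were lower, as Top1mt was, and the single-strand binding protein gene Ssbp1 (0.24) and the primase gene Primpol (0.19) were higher. Because Top2a follows the cell cycle, 19 genes of G2 and M phase were counted as well. Of these 9 were higher, 9 lower and 1 did not pass (16 higher and 1 lower with Hprt), with a median of -0.038. Aurkb (0.81) and Kif11 (0.48) were higher and Cdc20 (-0.47) and Birc5 (-0.37) lower, Birc5 not passing with scaling to Hprt, so with the main scaling the list had no common direction beside the small increase of Top2a. In bulk samples, a different share of cells in these phases and a different amount of RNA per cell cannot be told apart.

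**Figure D5:**
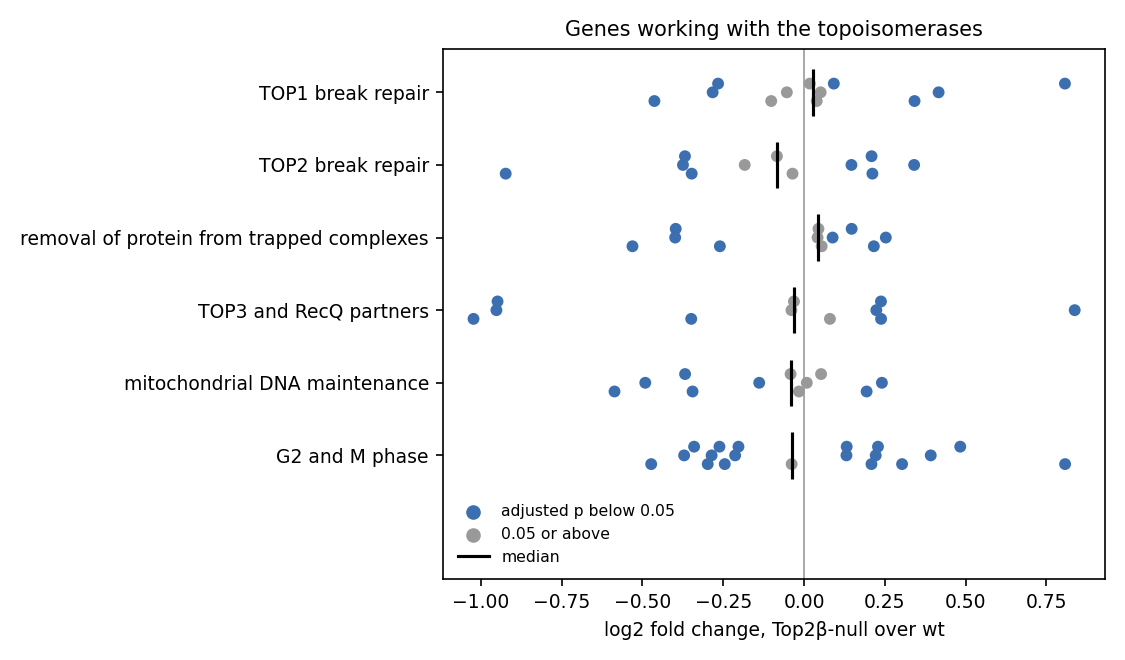
Log2 fold change (Top2β-null over wt) of every tested gene in 6 lists, in blue where the adjusted p was below 0.05, with the median as a black line. The medians lie between -0.084 and 0.045, and in each list some genes are higher and some lower.

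Of 4 further genes named for topoisomerases, 3 were tested, of which 2 were higher and 1 lower (3 higher and 0 lower with scaling to Hprt). Gm960, a relative of an archaeal topoisomerase subunit also called Top6bl, had 67.6 and 39.6 normalized counts in wt and 109 and 108 in Top2β-null MEF cells (log2 fold change 1.02, SE 0.231, adjusted p = 0.00106 in edgeR, and 0.68 without wt replicate 2), with a mean under the cut-off of 100. Topbp1, a checkpoint protein that binds Top2b, was 1.32-fold higher (27252 and 27178 against 36247 and 35552 normalized counts, log2 fold change 0.40, SE 0.0250, adjusted p = 6.12e-10 in edgeR). The ubiquitin ligase gene Topors was 0.075 lower on the log2 scale (adjusted p = 0.0148 in edgeR), a call that was lost with DESeq2 and with several scalings, and that turned to 0.29 with scaling to Hprt. Spo11, the meiotic relative of the type II enzymes, had 2 and 16 raw counts in wt and 0 and 2 in Top2β-null MEF cells and was not tested.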

How the data were processed

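Total RNA of 4 libraries (2 wt, 2 Top2β-null MEF) was sequenced. After trimming (Trim Galore!) and alignment to mm10 (STAR, with multiply aligned reads kept), the authors obtained counts per Gencode gene and RepeatMasker family from TEtranscripts. These raw counts were deposited without normalization. For the counting with TEtranscripts, strand setting and handling of multiply aligned reads are not given in the sources used here. Symbols, exon lengths and positions (GRCm38) come from GENCODE M21, to which 54495 of 54842 gene identifiers were matched.

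In R 4.3.3, 25085 genes and 1481 repeat families reached 10 counts in 2 or more libraries, were scaled with TMM factors and tested with edgeR 4.0.16 (quasi-likelihood, genotype only, Benjamini-Hochberg adjustment). Standard errors (SE) were derived from log2 fold change and F statistic, and intervals are 95%. Counts of replicates varied beyond counting noise (chi-square over degrees of freedom, wt 3.652, Top2β-null 5.067), so none was merged. DESeq2 1.42.0, other scalings and filters, a replicate block and leaving out each library were alternatives. The scripts were tested on simulated data. Named genes are the members, overlapping and neighbouring genes of Top2b and other members, Hprt, the 3 genes most like Top2b, and the 2 highest and 2 lowest log2 fold changes of each list among genes with a mean over 100. Rpa2, Recql4, Gm960, Sox10 and other markers were added after their values were seen. Gm15945, Gm20775 and CT010583.1 belong to the overlapping or sequence-sharing genes. Members and lists were chosen with earlier results of these data known. Gcna, a listed gene, was not matched. Some genes that this rule names are not reported here.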

Additional observations from a re-analysis of the deposited data

How the results depend on the processing

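The decrease of Top2b and Top1mt and the increase of Top3a and Top1 passed the test in every alternative run, those with 1 library left out included, whose p rests on the spread of 1 genotype. The log2 fold change of Top2b was -2.26 with a replicate block, which changed no call among the members. Same-numbered libraries did not deviate together (correlation 0.021 over 17952 features). A single correlation of this kind cannot exclude a pairing, and the labels state none. With scaling to Hprt, log2 fold changes turned positive for Tdp1 (0.068), Tdp2 (0.24), Top3b (0.35), Rmi1 (0.34), Rmi2 (0.36), Rarb (0.25), Eme1 (0.086), Rpa2 (0.020) and Topors (0.29), 7 members were higher and 2 lower, and list counts became 10 higher and 0 lower (Top1 breaks), 1 lower (Top2 breaks), 8 and 1 (protein removal), 7 higher (Top3 partners), 7 and 2 (mitochondrial DNA), 16 and 1 (G2 and M phase) and 0 lower (other topoisomerase-named genes). The list medians then were 0.40, 0.28, 0.41, 0.34, 0.33, 0.33 and 0.77, by construction, since all genes shift by 0.37. With scaling to the total count, Tdp2 (-0.059) lost its call and Top3b (0.055), Rmi1 (0.042) and Rmi2 (0.065) turned positive, the list medians in the same order were 0.098, -0.014, 0.11, 0.038, 0.028, 0.032 and 0.47, 7 genes of protein removal were higher and 0 other topoisomerase-named genes lower. TMM factors from genes only gave 0.0037 for Top3b and 0.014 for Rmi2, medians of 0.047 (Top1 breaks), -0.065 (Top2 breaks), 0.063 (protein removal) and 0.42 (other), and 0 lower among the other genes. DESeq2 gave 0.0030 for Rmi2 and 0 lower among the other genes. Without a filter, Rmi2 was 0.012, Top3b 0.0018, and the medians of protein removal and other genes were 0.062 and 0.42, the latter with 0 lower. With at least 100 counts in every library, Rmi2 was 0.0020, and the other genes had 1 higher and a median of 0.17. A log2 cut-off of 0.58 called 2 members lower. Tdp2 against the sum of Top2a and Top2b differed by 0.036 without division by length. The cause of these changes, beyond the scaling itself, was not tested.

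Leaving out each library gave -0.16 to -0.092 for Tdp2, 0.057 to 0.092 for Top2a, -0.037 to 0.023 for Top3b, -0.067 to 0.034 for Rmi1, -0.036 to 0.026 for Rmi2, -0.24 to 0.015 for Rarb and -0.023 to 0.070 for the ratio of Rmi2 to Rmi1. The list medians were 0.00091 to 0.065 (Top1 breaks), -0.091 to -0.043 (Top2 breaks), 0.036 to 0.064 (protein removal), -0.029 to 0.0091 (Top3 partners), -0.057 to -0.026 (mitochondrial DNA), -0.053 to -0.0071 (G2 and M phase) and 0.40 to 0.42 (other). Between 3 and 6 genes of protein removal were higher, and 0 to 1 of the other genes lower. In these fits the lone library of a genotype is assumed to vary like those of the other. The precision of each difference is limited by 2 libraries per group, as its interval shows.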
